A study of Mus musculus with 6 samples.

Results

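A set of 10 genes of the regulators of G-protein signaling family, *Rgs2*, *Rgs3*, *Rgs4*, *Rgs7*, *Rgs8*, *Rgs9*, *Rgs11*, *Rgs16*, *Rgs17* and *Rgs19*, were followed by mRNA sequencing in control and *Snd1* KO clones of MIN6 β cells. MIN6 is a mouse insulinoma cell line. The 10 members were taken by name from the 21 *Rgs* genes listed among the 53808 mouse genes of each library, and their Ensembl identifiers were matched through GENCODE M21 (GRCm38). All 10 were among the 17823 genes tested, which had a mean of at least 0.5 TPM (transcripts per 1000000) over the 6 clones. The study picked *Rgs8* and *Rgs16* for follow-up on these same libraries, so their direction here is not independent evidence.

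All 6 lines were derived from MIN6 cells that express Cas9, infected with a lentivirus carrying a gRNA and selected with puromycin. In the 3 control clones the gRNA was directed to intron 2 of *Snd1*, and in the 3 *Snd1* KO clones to exon 2. Each line was expanded from a single cell and gave 1 library, so that each genotype rests on 3 lines. The comparison asks which transcripts differ when *Snd1*, a transcriptional coregulator, is lost. Since the same parent line was used throughout, the spread below is that between clones of one cell line and not between animals.

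RGS proteins share a domain that binds the active, GTP-bound Gα subunit and speeds its hydrolysis of GTP, which ends the signal of a G-protein-coupled receptor. The R4 subfamily (*Rgs2*, *Rgs3*, *Rgs4*, *Rgs8* and *Rgs16* among the members) holds mostly small proteins that act on Gαi and Gαq. R7 proteins (*Rgs7*, *Rgs9*, *Rgs11*) carry further domains and pair with the Gβ5 subunit, and RZ proteins (*Rgs17*, *Rgs19*) act on Gαi and Gαz. In β cells, Gαi-coupled receptors restrain insulin secretion and Gαq- and Gαs-coupled receptors, such as FFAR1 and GLP1R, promote it.

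Library depth and the identity of the clones were checked first. The libraries held between 25805756 and 32993331 reads on genes in control and between 27012701 and 30306235 in the *Snd1* KO lines. *Snd1* had 113, 119 and 112 TPM in the control lines and 14.7, 57.1 and 19.9 TPM in the *Snd1* KO lines. The study based the *Snd1* KO label on SND1 protein and on indels in the gene, not on these RNA levels. The 10 β cell markers examined, insulin genes included, were all detected. Of the 5 acinar markers only *Cela1* was above the floor of 3 reads in any clone, at up to 0.668 TPM, and of the 2 δ cell markers only *Sst*, at 2.42 TPM in *Snd1* KO 1. Over 11368 genes averaging 5 TPM or more, the first principal component (40.3% of the variance) placed Control 1 and Control 2 at 30.3 and 33.0, *Snd1* KO 1 at 2.74, and Control 3, *Snd1* KO 3 and *Snd1* KO 2 at −12.9, −18.1 and −35.1, while the second set *Snd1* KO 1 apart at −43.4. Control 3 and *Snd1* KO 1 thus stand apart from their groups.

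*Rgs8* and *Rgs16*, both of the R4 subfamily, were the members with the largest differences between the groups. They are neighbours on the plus strand of chromosome 1 (GRCm38), with *Rgs8* (ENSMUSG00000042671) from 153653025 to 153700323 and *Rgs16* (ENSMUSG00000026475) from 153740349 to 153745468, a gap of 40.0 kb. *Rgs9* (ENSMUSG00000020599, chromosome 11 from 109225355 to 109298129, minus strand) was the third member whose groups did not overlap. The bases just before the first annotated start of these 3 genes are shown because promoters are where transcription of each begins. They were copied 5′ to 3′ on the strand of the gene from RefSeq promoter windows of GRCm38.p6, at chr1:153740103-153740348 for *Rgs16*, chr1:153652787-153653024 for *Rgs8* and chr11:109298182-109298431 for *Rgs9*, and capitals mark a CCAAT box (ATTGG on this strand) or a TATAAA motif.
Rgs16: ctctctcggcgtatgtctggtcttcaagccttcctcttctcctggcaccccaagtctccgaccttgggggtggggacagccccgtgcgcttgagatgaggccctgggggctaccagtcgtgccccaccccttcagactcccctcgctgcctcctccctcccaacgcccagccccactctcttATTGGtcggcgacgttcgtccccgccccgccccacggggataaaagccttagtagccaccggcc
Rgs8: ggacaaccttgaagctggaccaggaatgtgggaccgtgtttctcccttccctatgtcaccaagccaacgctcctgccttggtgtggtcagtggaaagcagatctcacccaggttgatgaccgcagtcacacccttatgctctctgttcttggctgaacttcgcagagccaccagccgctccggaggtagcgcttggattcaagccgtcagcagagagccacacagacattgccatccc
Rgs9: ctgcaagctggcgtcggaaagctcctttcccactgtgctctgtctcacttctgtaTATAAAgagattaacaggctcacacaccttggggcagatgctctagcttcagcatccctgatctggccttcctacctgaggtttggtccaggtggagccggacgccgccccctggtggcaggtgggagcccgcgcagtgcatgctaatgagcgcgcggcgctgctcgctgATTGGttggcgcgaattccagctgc

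These upstream stretches hold 65.9% G or C for *Rgs16*, 56.7% for *Rgs8* and 59.6% for *Rgs9*. RefSeq windows were matched for 9 of the 10 members, with 14 starts between them. In the 250 bases before each start, the E-box CACGTG was found at 1 of the 14 (*Rgs7*), the cAMP response element TGACGTCA and the homeodomain motif TAATTA at 0, TATAAA at 4 and CCAAT at 6. Over all 32851 RefSeq starts the shares with these motifs, read on both strands, were 6.02%, 1.55%, 4.84%, 12.4% and 33.8%, respectively. The CCAAT and TATAAA motifs were chosen after the sequences were seen. *Rgs8* has 3 RefSeq starts and 10 annotated transcripts, and the stretch shown above holds none of the 5 motifs. The deposited values are per gene and do not tell which start was used.

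For each member, log2(TPM + 1) of the 3 *Snd1* KO clones was set against that of the 3 controls with limma, and p-values were adjusted by the Benjamini-Hochberg method over all 17823 genes. A gene was called where it changed at least 2-fold with its adjusted p-value below 0.05, the cutoffs of the study. In its own analysis at these cutoffs the study called many more genes than here, with *Rgs8* and *Rgs16* among those lower. It followed both genes by qPCR on RNA that was isolated separately. Of the 10 members, 0 were called by limma, as were 0 with voom on recovered reads, and 3 had an unadjusted p-value under 0.05, all 3 lower in the *Snd1* KO lines. Of these 3, *Rgs8* passed the expression filter only through the control clones, where it was high, so that its place in this count is favoured by the filter. Over all genes tested, 0.00561% were called, and 2.33% were lower and 5.63% higher at an unadjusted p-value under 0.05 in the *Snd1* KO lines. The same 3 members, *Rgs8*, *Rgs9* and *Rgs16*, were below every control clone in each *Snd1* KO clone, and 0 members were higher in every clone. Among all genes, 4.03% were lower and 9.69% were higher without overlap. The members' median log2 fold change was −0.24, compared with 0.044 over all genes tested, with 6 of 10 members lower. Without *Snd1* KO 1, *Rgs2* was also lower and *Rgs3* and *Rgs11* were higher without overlap, where 10.9% and 22.6% of all genes were lower and higher. Without Control 3, *Rgs2* was added to those lower (17.8% of all genes), and without *Snd1* KO 2, *Rgs4* was higher (13.3% of all genes). The log2 fold changes without Control 3 and without *Snd1* KO 1, in this order, were −1.17 and −1.19 for *Rgs16*, −1.29 and −1.21 for *Rgs8*, −0.47 and −0.44 for *Rgs9*, −0.52 and −0.63 for *Rgs2*, 0.50 and 0.44 for *Rgs4*, and 0.65 and 1.09 for *Rgs11*. For the remaining members they were 0.017 and 0.14 (*Rgs3*), −0.24 and 0.067 (*Rgs7*), −0.66 and −0.65 (*Rgs17*) and −0.19 and 0.18 (*Rgs19*). With 3 clones against 3, an exact two-sided permutation test cannot give a p below 0.1.

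**Figure D1:**
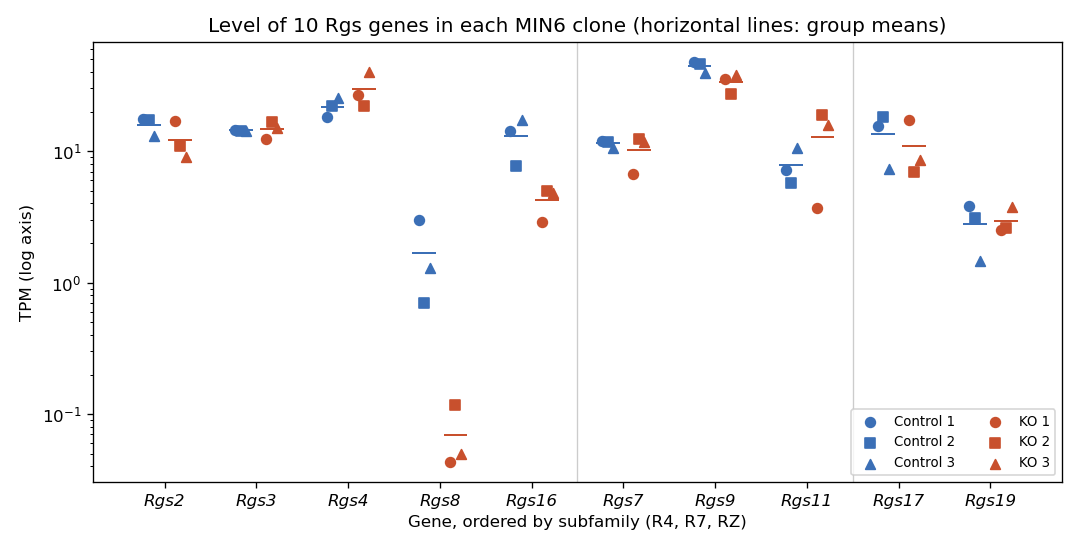
Level of the 10 members in TPM (log axis) in each of the 3 control (blue) and 3 *Snd1* KO clones (red), with horizontal lines at the group means. *Rgs8*, *Rgs16* and *Rgs9* are the 3 genes whose red points all lie below the blue ones.

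*Rgs16* encodes a small R4 protein whose transcript is readily induced in several cell types. It had 14.3, 7.70 and 17.2 TPM in the control lines 1 to 3 and 2.90, 4.99 and 4.81 TPM in the *Snd1* KO lines 1 to 3, from 192, 98 and 199 and from 35, 58 and 60 reads. The highest *Snd1* KO clone lay below the lowest control clone, Control 2, and Control 3 had the highest value of all. The means were 13.1 ± 4.87 TPM in control and 4.23 ± 1.16 TPM in the *Snd1* KO lines (SD, n = 3 each), a ratio of 32.4%. On the log2(TPM + 1) scale the difference was −1.39 (standard error 0.32, 95% interval −2.15 to −0.62, adjusted p = 0.542, limma), and the exact permutation p was 0.1, the smallest possible. Leaving out 1 clone at a time gave log2 fold changes between −1.70 (without Control 2) and −1.17 (without Control 3), and the adjusted p ranged from 0.0516 to 0.938 over all alternatives, with the lowest value when clones were weighted by their estimated quality.

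*Rgs8*, an R4 gene best known from Purkinje neurons, was expressed at a much lower level. It had 3.02, 0.696 and 1.30 TPM in the control lines and 0.0432, 0.116 and 0.0501 TPM in the *Snd1* KO lines. The *Snd1* KO values rested on 5, 13 and 6 reads, above the floor of 3 reads, and the control values on 388, 85 and 144 reads. Exact 95% Poisson intervals for the reads, which cover counting error only and are too narrow if both mates of a pair were counted, reached from 1.62 to 11.7, from 6.92 to 22.2 and from 2.20 to 13.1 in the *Snd1* KO lines 1 to 3, all below the interval of Control 2, 67.9 to 105. The control mean of 1.67 ± 1.205 TPM was 23.9-fold the *Snd1* KO mean of 0.0699 ± 0.0405 TPM (SD, n = 3 each). The ratio was 14.2-fold without Control 1 and 35.8-fold without *Snd1* KO 2. On the log2(TPM + 1) scale, which understates the change of so low a gene, the difference was −1.23 (standard error 0.36, 95% interval −2.09 to −0.36, adjusted p = 0.568, limma; exact permutation p = 0.1), whereas voom on the recovered reads gave −4.40. Control 1 had the highest value, and without it the log2 fold change was −0.88.

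The levels of these neighbours were set beside each other within each clone. The TPM were recomputed so that an exonic base shared by transcripts counts 1 time, which puts genes on one scale per length. On this scale, *Rgs8* was 49.0%, 21.0% and 17.6% of *Rgs16* in control clones 1 to 3 and 3.47%, 5.44% and 2.43% in the *Snd1* KO lines 1 to 3. The level of *Rgs8* was below that of *Rgs16* in every clone, and its share of it in each *Snd1* KO clone was below that of all control clones. Control 1 had the most *Rgs8* and Control 3 the most *Rgs16*. As RNA was taken from whole cultures, fewer cells expressing a gene and less of its RNA per cell cannot be told apart.

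Other protein coding genes around this pair were examined to describe the locus. Within 500 kb of the start of *Rgs16* there were 11 others, of which 5 passed the expression filter. Among these, 0 were called, 0 had an unadjusted p-value under 0.05 and 0 separated the groups, and their median log2 fold change was −0.16. *Npl*, which encodes a sialic acid lyase, had the largest difference at −0.35 (adjusted p = 0.772), followed by *Glul*, the glutamine synthetase gene, at −0.21 (adjusted p = 0.809), *Teddm2* at −0.16 and *Dhx9*, an RNA helicase gene, at 0.11. *Glul* had 692, 670 and 563 TPM in the control lines and 397, 620 and 681 TPM in the *Snd1* KO lines, which overlap. The annotated ends of *Teddm2* and *Glul* overlap, so reads of one may be counted for the other.

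**Figure D2:**
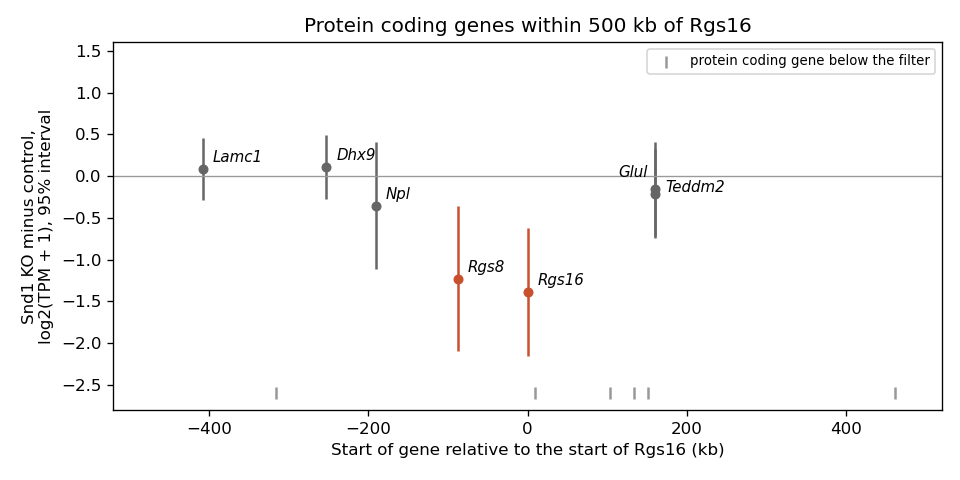
Difference between *Snd1* KO and control clones on the log2(TPM + 1) scale, with its 95% interval, for protein coding genes by the distance of their start from that of *Rgs16* in kb. *Rgs8* and *Rgs16* (red) lie at −1.23 and −1.39, while the 5 other tested genes (grey) lie between −0.35 and 0.11; ticks mark genes below the filter.

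Among the other R4 members, *Rgs2*, *Rgs3* and *Rgs4* had groups that overlapped. *Rgs2*, a regulator with a preference for Gαq, had 17.5, 17.2 and 13.04 TPM in control and 16.9, 10.9 and 9.003 TPM in the *Snd1* KO lines. *Snd1* KO 1 sat with Control 1 and Control 2, and Control 3 lay between these and *Snd1* KO 2 and 3. The difference of −0.39 (standard error 0.24, 95% interval −0.97 to 0.20) had an adjusted p of 0.694 in limma, and leaving out *Snd1* KO 1 or *Snd1* KO 3 gave −0.63 or −0.21. It was −0.77 with an adjusted p of 0.0264 when the clones were weighted, within a range up to 0.983 over all alternatives. *Rgs4* had 18.0, 22.2 and 25.3 TPM in control and 26.6, 22.0 and 40.3 TPM in the *Snd1* KO lines, with the highest value in *Snd1* KO 3 and the lowest in Control 1. The log2 difference was 0.39 (SE 0.24, adjusted p = 0.692, limma). It was 0.15 without *Snd1* KO 3 and 0.78 with clone weights (adjusted p = 0.0494), within a range up to 0.983 over all alternatives. *Rgs3* was the steadiest member, with 14.2 to 14.6 TPM in control and 12.3 to 16.7 TPM in the *Snd1* KO lines, a log2 fold change of 0.023 with a 95% interval from −0.32 to 0.37 (adjusted p = 0.978, limma). Its highest clone had 1.36 times the level of its lowest, the narrowest range of the 10 members.

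Of the R7 members, *Rgs9*, which ends phototransduction in the retina, had 47.3, 45.7 and 39.5 TPM in control and 35.2, 27.2 and 38.1 TPM in the *Snd1* KO lines. Every *Snd1* KO value lay below every control value, but Control 3 and *Snd1* KO 3 were close to each other. The means were 44.1 ± 4.14 TPM and 33.5 ± 5.67 TPM (SD, n = 3 each), or 75.9% of control, with a log2 fold change of −0.40 (standard error 0.16, 95% interval −0.77 to −0.03, adjusted p = 0.607, limma; exact permutation p = 0.1), or −0.26 without *Snd1* KO 2. *Rgs7* had 12.005, 11.8 and 10.6 TPM in control and 6.76, 12.4 and 11.6 TPM in the *Snd1* KO lines, so that *Snd1* KO 1 alone was low. Its log2 fold change was −0.18 (95% interval −0.73 to 0.37, adjusted p = 0.850), 0.067 without that clone and −0.33 without *Snd1* KO 2.

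*Rgs11* was the member that differed most among *Snd1* KO clones. It had 7.15, 5.75 and 10.5 TPM in the control lines, and 3.72 TPM in *Snd1* KO 1 compared with 18.9 and 15.7 TPM in *Snd1* KO 2 and 3. *Snd1* KO 1 was thus the lowest of all 6 clones while the other two were the highest, a range of 5.08-fold. The log2 fold change was 0.44 (standard error 0.55, 95% interval −0.88 to 1.75, adjusted p = 0.849, limma), 1.09 without *Snd1* KO 1 (adjusted p = 0.217), 0.26 without Control 2, 0.17 without *Snd1* KO 3 and 0.049 without *Snd1* KO 2.

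R7 proteins are stable only with Gβ5 and are held at membranes by R7BP, R9AP or the orphan receptors GPR158 and GPR179. *Gnb5* had 16.2 to 18.6 TPM in control and 15.5 to 16.2 TPM in the *Snd1* KO lines, a log2 fold change of −0.14 (adjusted p = 0.758). *Rgs7bp* had 40.9 to 62.2 and 30.5 to 67.4 TPM, respectively (−0.20, adjusted p = 0.880). *Gpr158* had 48.5, 59.6 and 35.4 TPM in control and 64.0, 16.6 and 19.8 TPM in the *Snd1* KO lines (−0.73, adjusted p = 0.715), with *Snd1* KO 1 the highest of all clones. For *Gpr179* the values were 5.93, 3.80 and 0.754 TPM and 0.130, 1.19 and 3.81 TPM (−0.76, adjusted p = 0.769), and *Rgs9bp* stayed at or below 0.399 TPM and was not tested. All 4 tested partners had a negative log2 fold change, but 0 had an unadjusted p-value under 0.05 and 0 separated the groups.

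The RZ members also crossed the genotypes. *Rgs17* had 15.5, 18.0 and 7.26 TPM in control and 17.4, 6.97 and 8.57 TPM in the *Snd1* KO lines. Control 1, Control 2 and *Snd1* KO 1 lay at or above 15.5 TPM and the other 3 clones at or below 8.57 TPM, and the former 3 were also the clones with positive values on the first principal component. The log2 fold change of *Rgs17* was −0.30 (standard error 0.42, 95% interval −1.30 to 0.71, adjusted p = 0.869, limma), −0.66 without Control 3, −0.65 without *Snd1* KO 1, −0.061 without Control 2 and −0.051 without *Snd1* KO 2. *Rgs19*, also known as GAIP, had 3.80, 3.10 and 1.47 TPM in control and 2.49, 2.59 and 3.74 TPM in the *Snd1* KO lines, with Control 3 the lowest. Its log2 fold change was 0.096 (95% interval −0.63 to 0.82, adjusted p = 0.951), −0.19 without Control 3 and 0.29 without Control 1.

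**Figure D3:**
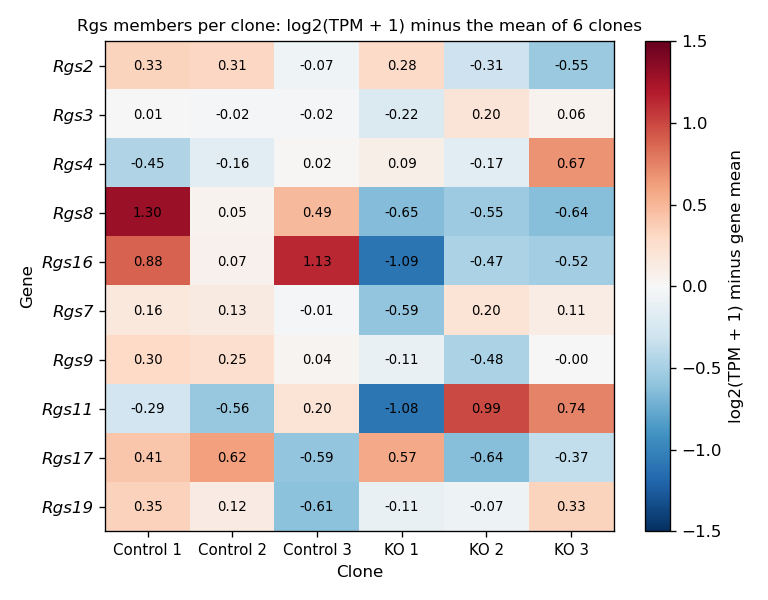
Heatmap of log2(TPM + 1) of each member in each clone minus the mean of the 6 clones, with the value printed in each cell and red above and blue below the mean. *Rgs8* and *Rgs16* are negative in all 3 *Snd1* KO clones and positive in all 3 control clones, while *Rgs17* is positive in Control 1, Control 2 and *Snd1* KO 1 and *Rgs11* is lowest in *Snd1* KO 1 (−1.08).

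Across the 6 clones, *Rgs8* and *Rgs16* followed the grouping together, while other pairs of members crossed it. As a description without a test, over 6 clones that include both groups, Pearson's r of log2(TPM + 1) was 0.89 between *Rgs8* and *Rgs16*, 0.89 between *Rgs3* and *Rgs11*, 0.84 between *Rgs2* and *Rgs17* and −0.90 between *Rgs11* and *Rgs17*. *Rgs16* and *Rgs17* had an r of −0.15. Among 11367 other genes averaging 5 TPM or more, those most like *Rgs16* were *Smg5* (r = 0.98), *Gna11* (r = 0.98) and *Rilpl2* (r = 0.98). *Gna11* encodes a Gα subunit of the Gq class and had 179, 174 and 189 TPM in control and 159, 167 and 164 TPM in the *Snd1* KO lines, so that it followed the order of *Rgs16* over a much smaller range. For *Rgs8* they were *Rps6-ps4* (r = 0.99), *Kdm4b* (r = 0.98) and *4833439L19Rik* (r = 0.98). These genes were picked as the highest of all those correlations, and *Rps6-ps4* is a pseudogene that may share reads with *Rps6*.

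**Figure D4:**
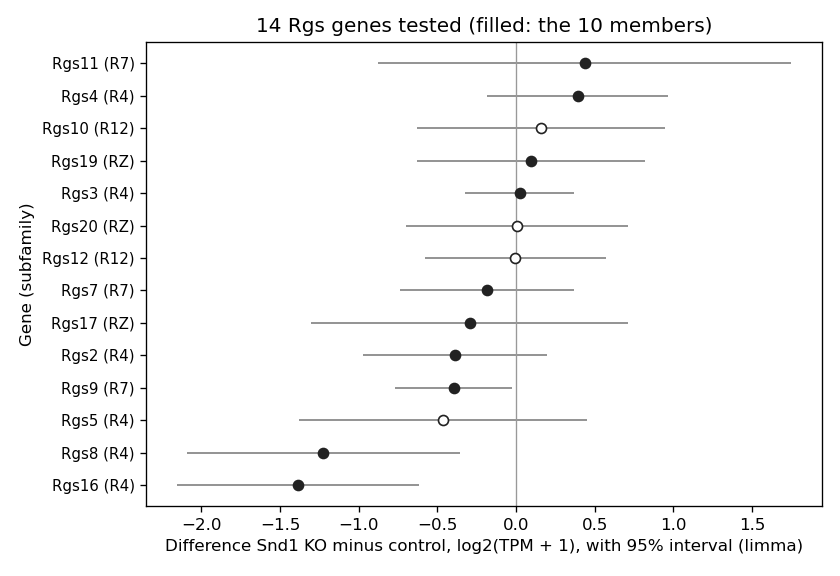
Difference between *Snd1* KO and control clones in log2(TPM + 1) with its 95% interval from limma, for the 14 *Rgs* genes tested, with the subfamily in brackets and filled points for the 10 members. The intervals of *Rgs16*, *Rgs8* and *Rgs9* lie below 0 and those of the 11 other genes include 0.

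The remaining 11 *Rgs* genes were looked up for comparison. Of these, 4 were tested, with 0 called, 0 at an unadjusted p-value under 0.05 and 0 with separate groups. *Rgs10* and *Rgs12* (R12 subfamily) had 13.3 to 31.5 and 2.67 to 4.81 TPM over the 6 clones, with log2 fold changes of 0.16 and −0.0050. *Rgs20* (RZ) had 1.03 to 2.36 TPM. *Rgs5*, which lies 45.7 kb from *Rgs4* on chromosome 1, had 1.45 and 1.41 TPM in Control 1 and 2 and 0.0839 to 0.483 TPM in the other 4 clones. The 7 other genes, *Rgs1*, *Rgs6*, *Rgs13*, *Rgs14*, *Rgs18*, *Rgs21* and *Rgs22*, did not exceed 0.532 TPM in any clone. *Rgs1*, *Rgs13*, *Rgs18* and *Rgs21* lie in the same stretch of chromosome 1 as *Rgs2*, whose start is 173 kb from that of *Rgs13*, the nearest of them. *Rgs2* was therefore the only gene of that cluster to pass the filter.

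To compare levels between genes, the TPM recomputed per length were used. *Rgs9* was the highest member at 45.6 ± 4.10 in control clones, and *Rgs4* the highest at 37.5 ± 12.1 in the *Snd1* KO lines, where *Rgs9* was at 34.8 ± 6.02 (recomputed TPM, SD, n = 3), a difference between the 2 genes within their spread. In control clones the order of the means was *Rgs9* (45.6), *Rgs3* (28.2), *Rgs4* (27.5), *Rgs17* (19.2), *Rgs11* (18.6), *Rgs7* (15.9), *Rgs2* (13.8), *Rgs19* (8.94), *Rgs16* (8.18) and *Rgs8* (2.43). The ranges of neighbours in this order overlapped, except for *Rgs9* above *Rgs3* and *Rgs16* above *Rgs8*. Among *Snd1* KO clones it was *Rgs4* (37.5), *Rgs9* (34.8), *Rgs11* (30.5), *Rgs3* (29.1), *Rgs17* (15.6), *Rgs7* (14.3), *Rgs2* (10.7), *Rgs19* (9.47), *Rgs16* (2.66) and *Rgs8* (0.102), and here *Rgs19*, *Rgs16* and *Rgs8* were each separate from the next. *Rgs16* made up 3.78%, 2.13% and 5.20% of the summed level of all 21 *Rgs* genes in control clones and 0.98%, 1.36% and 1.19% in the *Snd1* KO lines, and *Rgs8* made up 0.45% to 1.85% and 0.029% to 0.074%, respectively. The sum itself was 236, 226 and 207 in control and 186, 229 and 255 in the *Snd1* KO lines. It overlapped between the groups, as did the R4 sum at 80.9 ± 3.18 and 80.5 ± 10.1 and the R7 sum at 80.0 ± 2.48 and 79.6 ± 21.3 (recomputed TPM, SD, n = 3 each). The R7 sum was 55.1 in *Snd1* KO 1 and 90.2 and 93.5 in *Snd1* KO 2 and 3, while it stayed between 77.3 and 82.1 in control clones.

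**Figure D5:**
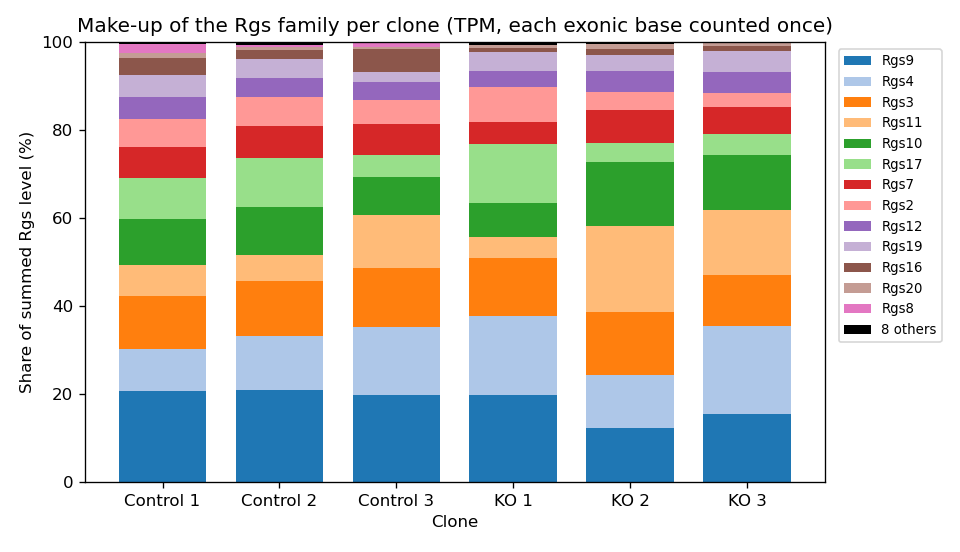
Share of each *Rgs* gene in the summed level of all 21 *Rgs* genes, in percent, for each clone on the recomputed TPM, with the 8 lowest genes pooled. *Rgs16* (brown) takes 2.13% to 5.20% in control and 0.98% to 1.36% in the *Snd1* KO lines, and *Rgs11* (light orange) takes 19.6% and 14.7% in *Snd1* KO 2 and 3 compared with 4.79% in *Snd1* KO 1.

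The partners and targets of RGS proteins were then described by lists. Of the Gα genes, 13 of 16 were tested with 0 called, and of those tested 1 was higher and 1 lower in every *Snd1* KO clone, beside 9.69% and 4.03% of all genes tested. The higher one, *Gnai2*, chosen after its values were seen, encodes a Gαi subunit on which R4 and RZ proteins act, and had 73.3, 66.9 and 114 TPM in control and 123, 154 and 147 TPM in the *Snd1* KO lines (log2 fold change 0.77, adjusted p = 0.568, limma). The lower one was *Gna11* (−0.14, adjusted p = 0.696), and the median of the list was 0.020. Of the Gβ and Gγ genes, 11 of 17 were tested with 0 called and 0 separate, and a median of −0.032. Among RGS domain proteins outside the family, such as GRK kinases, axins, sorting nexins and AKAP10, 14 of 15 were tested with 0 called. *Grk3* was the 1 gene with separate groups and was higher (log2 fold change 0.32, adjusted p = 0.614, limma), beside 9.69% of all genes tested. The list of other Gα regulators had 6 of 8 tested, 0 called, 1 higher in every *Snd1* KO clone and a median of 0.087.

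Effectors and receptors were described in the same way. Of 17 effector genes, 11 were tested, 0 were called, and 3 were higher in every *Snd1* KO clone at an unadjusted p-value under 0.05, namely *Adcy3*, *Adcy6* and *Plcb4*. Over all genes tested, 9.69% were higher without overlap and 5.63% were higher at an unadjusted p-value under 0.05. The share that met both was not counted. *Adcy3*, an adenylate cyclase gene, had 0.176, 0.0998 and 0.345 TPM in control and 2.23, 0.913 and 1.53 TPM in the *Snd1* KO lines (log2 fold change 1.06, adjusted p = 0.568), and it passed the filter only through the *Snd1* KO clones. *Plcb4*, a phospholipase C gene of the Gαq pathway, had 13.97 to 18.1 and 20.7 to 27.1 TPM, respectively (0.62, adjusted p = 0.568). Of 20 Gi- and Gq-coupled receptor genes, 11 were tested with 0 called, and 5 had an unadjusted p-value under 0.05, 4 higher and 1 lower, beside 5.63% and 2.33% of all genes tested. In every *Snd1* KO clone 2 receptor genes were higher, beside 9.69% of all genes tested, and 0 were lower. *Galr1*, the galanin receptor gene, which was named after its values were seen, had 54.2, 58.8 and 67.8 TPM in control and 91.0, 108 and 97.4 TPM in the *Snd1* KO lines (0.70, adjusted p = 0.372). The median of the receptor list was 0.47 and that of the effectors 0.071, beside 0.044 over all genes tested. *Glp1r*, the Gαs-coupled receptor for GLP-1, had 1068, 964 and 494 TPM in control and 432, 384 and 414 TPM in the *Snd1* KO lines, and unlike *Rgs16* it was lowest of the controls in Control 3.

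Markers of cell types were set beside these results. Of the 10 β cell markers, 5 had a positive and 5 a negative log2 fold change, with a median of 0.050 and 0 called. *Slc30a8*, which encodes a zinc transporter of insulin granules, was at 215, 191 and 744 TPM in the control lines and at 809, 1005 and 779 TPM in the *Snd1* KO lines, which did not overlap (log2 fold change 1.45, adjusted p = 0.585). *Slc2a2*, the glucose transporter gene, named after its values were seen, was at 160, 65.0 and 172 TPM and at 91.5, 40.5 and 32.8 TPM, respectively, which overlap (−1.28, adjusted p = 0.607). The summed level of the 5 α cell markers, 3 of them above the floor in any clone, was 14440 to 20310 TPM in control and 3087 to 8922 TPM in the *Snd1* KO lines and so moved with *Rgs8* and *Rgs16*. Most of it was *Ttr* in every clone, though in *Snd1* KO 1 *Ttr* had 3796 TPM and *Gcg* 1100 TPM. *Gcg* had 174 to 314 TPM in control and 55.2 to 1100 TPM in the *Snd1* KO lines, which overlap. Of 4 neuron markers, all were above the floor, with sums of 295 to 486 and 363 to 428 TPM that overlapped. The 3 duct markers and the PP cell marker were at or below the floor in every clone, while the lists of 5 acinar, 2 δ cell, 4 fibroblast and 3 immune markers each summed to at most 3.14 TPM in any clone. The part of these markers in the difference of *Rgs8* and *Rgs16* was not tested.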

How the data were processed

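RNA of 6 MIN6 clones was prepared as cDNA with Nextera XT libraries and sequenced as paired ends, and the authors used the Genialis platform for the reads. They deposited 1 TPM value per gene and clone. The submitters' processing notes name FastQC, Trimmomatic, HISAT2, HTSeq, DESeq2 and the build mm10, without versions or roles. The TPM deposited by the authors divide by the summed exon length of all transcripts of a gene. Multiplied by that length (GENCODE M21, which matched 53706 of 53808 genes and was inferred from the values), or for 1580 genes by a length searched to give whole reads, 99.8% of the values above 0 came out as whole reads within 0.01, which gave the depth. Whether a recovered read is 1 mate or 1 pair is not stated. The study gives fewer reads per library than any total recovered here, so both mates were probably counted. The number of independent fragments is then smaller, also for *Rgs8* and *Rgs16*. A floor of 3 reads was used. Intervals on reads cover counting error only. The 92 ERCC controls were left out.

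Genes averaging 0.5 TPM or more were compared on log2(TPM + 1) with limma 3.58.1 in R 4.3.3 (lmFit, eBayes with a trend) and Benjamini-Hochberg adjustment. The fit was tried first on simulated data with mostly less spread than these clones, which does not show its power here. Exact two-sided permutation tests compared single genes with numpy 2.4.6, and scipy 1.17.1 gave the intervals on reads. Clones came from separate single cells, and their numbers were not found to pair them. The members and gene lists were chosen with earlier results of these data known. All *Rgs* genes and R7 partners were named, with genes of other lists named if called or if separate between the groups and changed 2-fold or more on that scale, up to 4 neighbours of *Rgs16* by size, *Snd1*, *Glp1r* and the 3 genes most correlated with *Rgs16* and *Rgs8*. Other genes were named after their values were seen. Alternatives were other pseudocounts, filters, scalings, trends, clone weights, a replicate block, leaving out each clone, voom on the recovered reads and other thresholds.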

Additional observations from a re-analysis of the deposited data

How the results depend on the processing

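The count of 0 members called held under all 20 alternatives, although the number of genes called in all moved. It was 1 with the settings of the report, 0 without a filter, without a trend and with voom, 2 at an adjusted p-value under 0.1, 895 with clone quality weights, and 0 to 1 when each clone was left out. The cause was not tested. The weights ran from 0.279 (Control 3) and 0.286 (*Snd1* KO 1) to 3.91 (*Snd1* KO 3). Clone numbers did not pair the clones, with correlations of deviations of 0.115, −0.199 and −0.108 for numbers 1 to 3. With a replicate block 0 genes were called, and the adjusted p was 0.709 for *Rgs16* and 0.736 for *Rgs8* (limma). Members that did not overlap numbered 3 to 6 when each clone was left out, with the 6 found without *Snd1* KO 1, where 22.6% of all genes were higher and 10.9% lower.

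The log2 fold changes of *Rgs2*, *Rgs4*, *Rgs8*, *Rgs9*, *Rgs11*, *Rgs16* and *Rgs17* kept their sign under every alternative run. That of *Rgs3* turned to −0.0139 with quantile normalization, −0.0211 with median ratio scaling and to −0.0686 without *Snd1* KO 2, within −0.0686 to 0.1377 when each clone was left out. *Rgs7* turned to 0.0666 without *Snd1* KO 1 (−0.3292 to 0.0666), and *Rgs19* to −0.0381 with quantile normalization, −0.186 without Control 3 and −0.0444 without *Snd1* KO 3 (−0.1862 to 0.2942). For *Rgs8*, pseudocounts of 0.1 and 0.01 gave −3.18 and −4.25. *Rgs8* and *Rgs19* were not tested at a mean of at least 5 TPM. Genes with an unadjusted p-value under 0.05 and a 2-fold change numbered 271 higher and 129 lower, and 187 and 183 with quantile normalization. They numbered 815 in all without Control 3, 770 without *Snd1* KO 1, 703 with voom and 1309 with weights, compared with 400. At 5 to 13 reads, the level of *Rgs8* in *Snd1* KO clones is limited by depth.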

Other observations

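Some genes of the Gβγ and receptor lists, chosen after their values were seen, are given as values. The choice is not complete, and other receptor genes differed more between clones than *Ffar1*. *Gng2*, a Gγ subunit gene, had 28.6 and 39.4 TPM in Control 1 and 2, 0.305 TPM in Control 3 and 0.819, 2.58 and 3.51 TPM in *Snd1* KO clones, so that Control 3 lay below every *Snd1* KO clone (log2 fold change −1.91, adjusted p = 0.710, limma). *Ffar1*, the Gαq-coupled fatty acid receptor gene, had 416, 427 and 536 TPM in control and 519, 782 and 756 TPM in *Snd1* KO clones (0.56, adjusted p = 0.589). *Sstr5*, a Gαi-coupled somatostatin receptor gene, had 13.4, 11.9 and 21.7 TPM in control and 12.5, 4.24 and 5.19 TPM in *Snd1* KO clones (−1.09, adjusted p = 0.594). *Drd2*, the dopamine D2 receptor gene, had 22.4 to 27.3 TPM in control clones, 6.62 TPM in *Snd1* KO 1 and 36.7 and 38.8 TPM in *Snd1* KO 2 and 3, the same split among *Snd1* KO clones as *Rgs11*.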
